A study of Mus musculus with 11 samples.

Results

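The cell cycle and replication genes are 42 genes that a dividing cell needs in order to leave quiescence, copy its DNA and separate its chromosomes. They were taken by symbol, as the probe sets whose platform annotation names exactly 1 of the 42 genes, and the median of those probe sets was the value of the gene. Of the 42, 41 genes were measured, on 102 probe sets, out of 18193 genes in all. Ccnb1, the partner cyclin of Cdk1 at the entry to mitosis, was not analysed here because no probe set names it alone. Of the 41, 32 rested on more than 1 probe set, with at most 7, and 9 on a single one.

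Expression was measured on 11 Affymetrix whole-genome mouse arrays, each with RNA of B cells from the spleens of female mice aged 6 weeks. NOD/ShiLtJ (NOD) is an inbred strain that develops autoimmune diabetes, and NOD.NOR-Chr4/DvsJ (NR4) is NOD that carries a stretch of chromosome 4 from the related NOR strain. B cells were enriched by magnetic removal of other cells from 3 lots per strain of 7 to 8 pooled spleens. Cells of each lot then spent 2 h in medium, or in medium with 10 µg/ml of goat F(ab')2 fragments against mouse IgM, which cross-link the B cell receptor. The groups were 3 arrays of unstimulated NOD cells, 2 of NOD cells with anti-IgM, 3 of unstimulated NR4 cells and 3 of NR4 cells with anti-IgM. All 4 groups share the NOD background, and the lots of a strain supplied both its unstimulated and its stimulated cells.

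Resting B cells are held outside the cell cycle, in G0. D-type cyclins with Cdk4 and Cdk6 phosphorylate the retinoblastoma family of pocket proteins, which then release the E2F transcription factors. E2F1, E2F2 and E2F3 switch on genes for origin licensing and DNA synthesis, and genes for mitosis follow later under other factors. In B cells the receptor signal induces Myc within hours, while entry into DNA synthesis takes about a day.

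Each value is the deposited signal of a probe set, taken to be on a log2 scale, less its median over the 11 arrays, so that a value of 0 is the middle array and a difference of 1 is 2-fold. Such values hold differences between arrays and no level, so it could not be read from them which of the genes, or which cell type markers, were detected. In these bulk samples fewer cells of a type and less RNA per cell cannot be told apart. Differences were tested with limma over all 18193 genes, and called at a Benjamini-Hochberg adjusted p under 0.05. Of 6 genes used as a check on the culture with anti-IgM 4 rose and 2, Egr3 and Cd69, did not pass, averaged over strains. Myc rose by 1.46 (SE 0.18), the nuclear receptor gene Nr4a1 by 1.43 (SE 0.20) and Egr2 by 1.21 (SE 0.07), with limma adjusted p = 0.00494, 0.0082 and 7.12e-05. Of 9 pan B cell markers, 3 fell (Cd22, Cd79b and Ms4a1), and of the markers of erythroid precursors, T cells, NK cells and myeloid cells none was called, with the smallest limma adjusted p over those lists at 0.0635, that of Cd14 of the myeloid list. With the replicate number as a block, Cd14 rose by 0.53 (limma adjusted p = 0.0357), the 1 of 12 myeloid markers called in that fit. The mean of the 9 B cell markers ran from -0.16 to 0.31 on unstimulated arrays and from -0.47 to -0.02 on stimulated arrays, and that of the 12 myeloid markers from -0.11 to 0.13 and from -0.10 to 0.21. Their part in the differences below was not tested.

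The first question was whether the cell cycle genes had responded after 2 h of anti-IgM. Of the 41 genes, 1 fell, the activator gene E2f2, 0 rose and 40 did not pass. Over all genes, 1.56% were called in this comparison, 130 higher and 153 lower, so that 1 of 41 is near the background. At an unadjusted p under 0.05 there were 5 of the 41 (12.2%), against 2070 (11.4%) of all genes. The median difference of the 41 genes was 0.04, with 26 of them above 0, and the median of all genes was 0.00, with 51.0% above 0. The 95% intervals bounded the change in each gene's array signal, and whether a gene was detected is not known. For 39 of the 41 the interval lay within 1 either way, the exceptions being E2f2 and Birc5, and for 28 within 0.5. These intervals are from the fit without the replicate number. With that number as a block, the interval of Birc5 ran from 0.19 to 0.90 and that of E2f2 from -1.05 to -0.53. In that fit E2f2 passed as well, and the next smallest limma adjusted p was 0.0897, that of Mcm3.

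**Figure D1:**
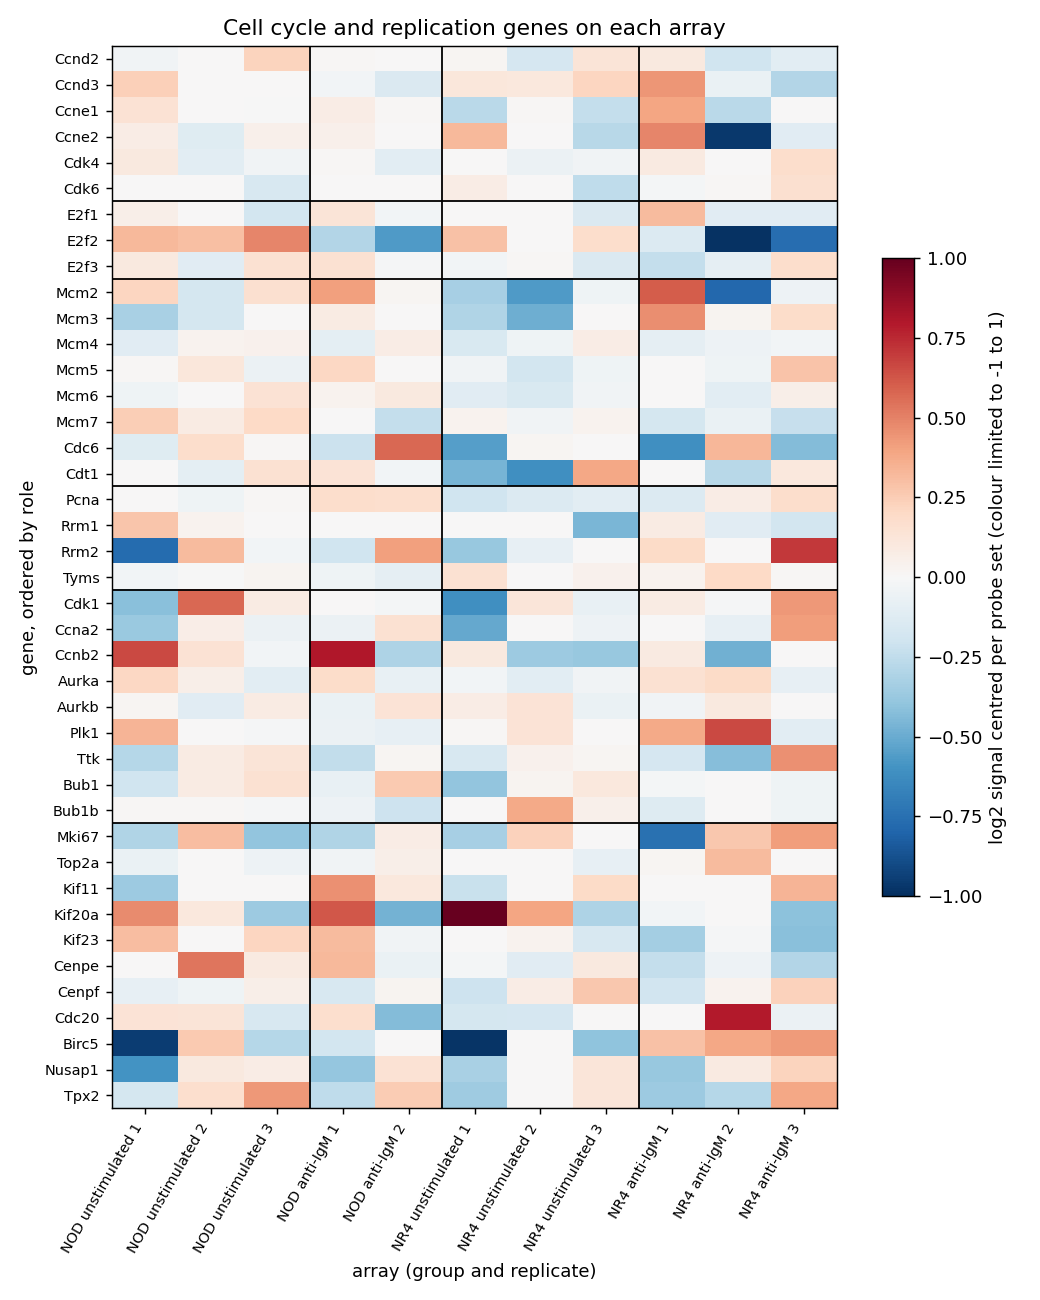
Centred log2 signal of the 41 measured cell cycle and replication genes (rows, ordered by role, lines between roles) on the 11 arrays (columns, lines between groups), with colour limited to -1 to 1. E2f2 and, by smaller steps, Mcm7 turn from higher to lower with anti-IgM in both strains, and single arrays of Kif20a, Rrm2 and Mcm2 reach deep colour without following the groups.

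**Figure D2:**
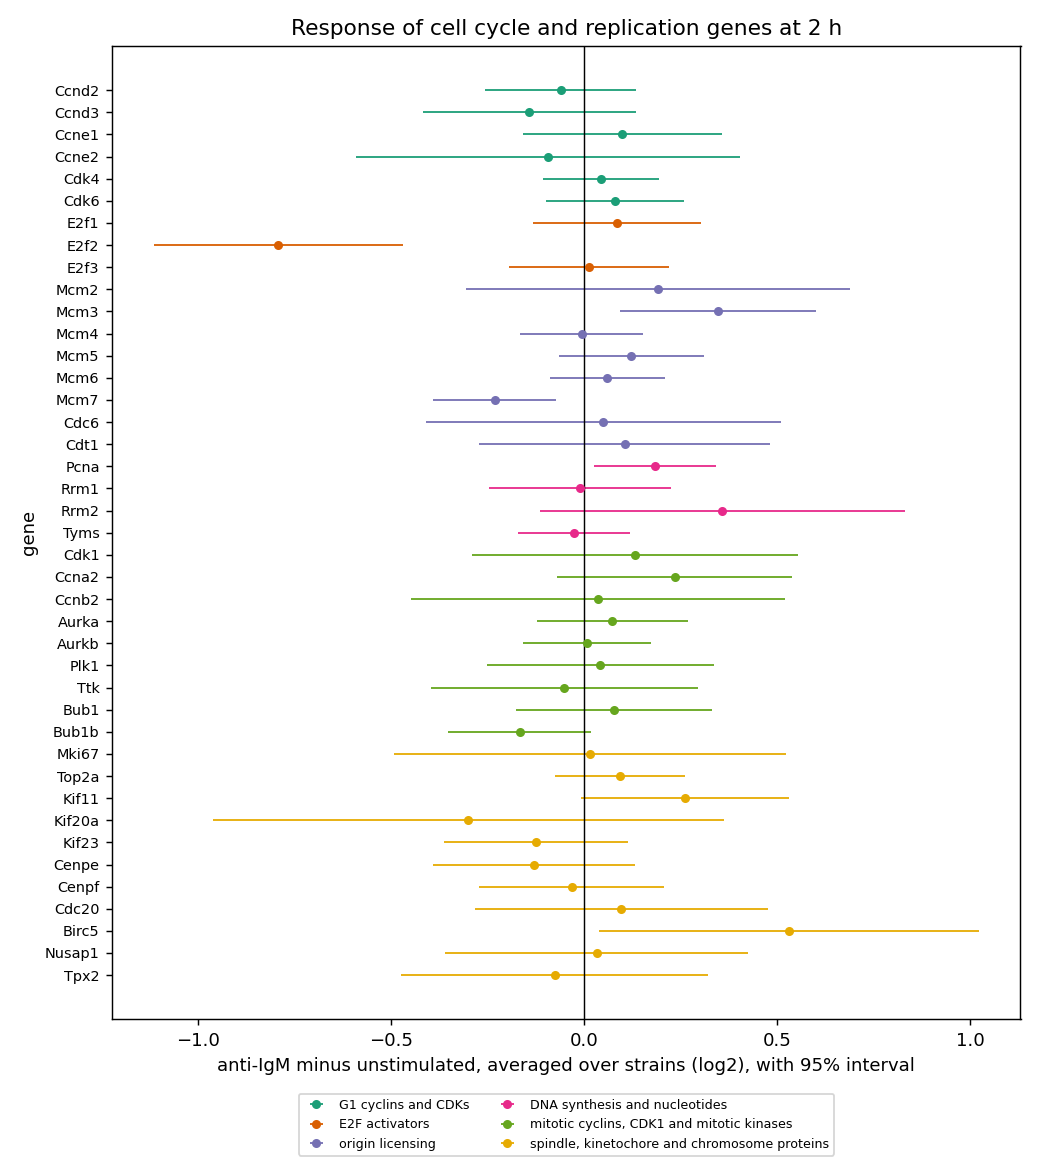
Difference between anti-IgM and unstimulated cells, averaged over the 2 strains, on the log2 scale for each of the 41 genes (point) with its 95% limma interval (line), coloured by role. E2f2 lies at -0.79 with an interval from -1.11 to -0.47, and most other intervals span 0.

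E2f2 codes for one of the 3 activating E2F factors and lies on chromosome 4. In unstimulated NOD cells its values were 0.32, 0.30 and 0.49, and in NOD cells with anti-IgM -0.29 and -0.57. In unstimulated NR4 cells they were 0.29, 0.00 and 0.17, and in NR4 cells with anti-IgM -0.14, -0.98 and -0.76. All 5 stimulated arrays were below all 6 unstimulated arrays, and the NR4 array with anti-IgM numbered 1 was the highest of the stimulated arrays. The group means were 0.37 ± 0.10 (SD, n = 3) and -0.43 ± 0.20 (SD, n = 2) in NOD, and 0.16 ± 0.15 (SD, n = 3) and -0.63 ± 0.44 (SD, n = 3) in NR4. Averaged over strains E2f2 fell by 0.79 (SE 0.15), with limma adjusted p = 0.0251. With the replicate number as a block it fell by 0.79 (SE 0.12, limma adjusted p = 0.0105), in a fit that called 3.07% of all genes.

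The size of the difference in E2f2 was nearly the same in both strains, at -0.80 (SE 0.22) in NOD and -0.78 (SE 0.19) in NR4, and their difference was -0.02 with an interval from -0.66 to 0.63. Within a strain the call was not made, with limma adjusted p = 0.383 in NOD and 0.156 in NR4. With the replicate number as a block, fitted over both strains, it was made in NR4 (-0.78, limma adjusted p = 0.0488), where that fit called 1.26% of all genes, and not in NOD. Both probe sets of E2f2 pointed the same way, 1436434_at by -0.99 and 1455790_at by -0.59, and the latter was the 1 member probe set that passed when p-values were adjusted over probe sets. On 1436434_at the NR4 arrays overlapped, with 0.06 on NR4 with anti-IgM number 1 and 0.08, 0.00 and -0.10 on the unstimulated arrays. With 1436434_at alone as the gene's value the call was lost (limma adjusted p = 0.136). The call depended on which arrays were included. Leaving out single arrays moved the difference between -0.92 and -0.70 and the limma adjusted p between 0.00318 and 0.137. The call was kept in 3 of 11 such fits, those without unstimulated NR4 number 2 or without NR4 with anti-IgM number 1 or 2.

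NR4 with anti-IgM number 1 also stood apart in a sign of RNA quality, the 3' minus the 5' signal of the actin and Gapdh control probe sets. It was 0.956 there and between 0.0419 and 0.231 on the other stimulated arrays. On unstimulated arrays it ran from -0.0791 to -0.0069 in NOD and from -0.0683 to 0.289 in NR4. In NOD the stimulated arrays, at 0.215 and 0.132, were thus above all unstimulated ones, while in NR4 the arrays overlapped. The part of RNA quality in the response was not tested. Without NR4 with anti-IgM number 1, E2f2 differed by -0.92, with limma adjusted p = 0.00318.

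**Figure D3:**
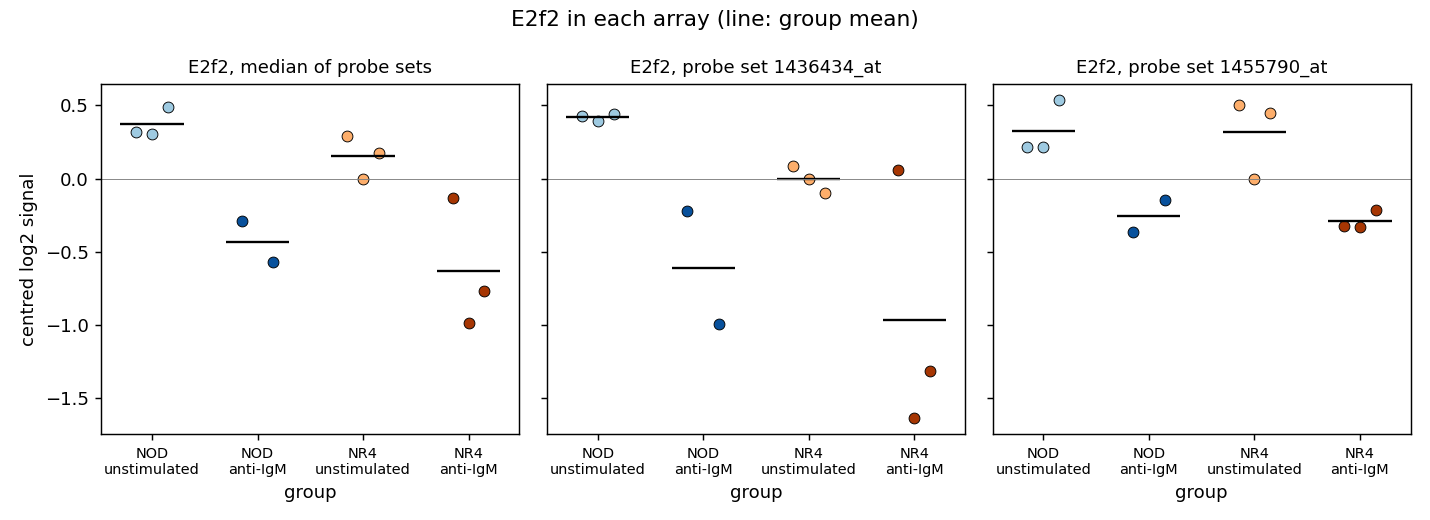
Centred log2 signal of E2f2 on each array (points) and the group mean (line), for the median of its probe sets and for 1436434_at and 1455790_at singly. In the first panel the stimulated arrays of both strains, from -0.98 to -0.14, sit below the unstimulated ones, from 0.00 to 0.49.

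Neither of the other activators, E2f1 and E2f3, passed. E2f1 differed by 0.09 (SE 0.10, limma adjusted p = 0.902), with an interval from -0.13 to 0.30. E2f3 differed by 0.01 (SE 0.09), with an interval from -0.20 to 0.22. E2f1 ran from -0.18 to 0.13 in NOD and from -0.14 to 0.31 in NR4, and its stimulated and unstimulated arrays overlapped in both strains.

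Sequences around the start sites are shown for E2f2, for Mcm3 and Mcm7, whose arrays also separated, and for Cenpa, a related gene that rose. They are RefSeq promoter windows of GRCm38.p6, from 250 bases before to 50 after the first start site listed for the gene, written 5′ to 3′ along the gene. The E2f2 window is chr4:136172024-136172323 on the plus strand, that of Mcm3 chr1:20820263-20820562 on the minus strand, that of Mcm7 chr5:138171834-138172133 on the minus strand, and that of Cenpa chr5:30666636-30666935 on the plus strand. In the first 3, capitals mark an E2F motif, and in Cenpa they mark a CHR, the cell cycle homology element of late cell cycle promoters. Counted from the start site, the marked motifs begin at 39 in E2f2, 19 and 38 in Mcm3, -165 and 16 in Mcm7, and 16 in Cenpa. All but that at -165 thus lie after the start site. A further window listed for E2f2, and one for Mcm7, held 0 E2F motifs.
E2f2: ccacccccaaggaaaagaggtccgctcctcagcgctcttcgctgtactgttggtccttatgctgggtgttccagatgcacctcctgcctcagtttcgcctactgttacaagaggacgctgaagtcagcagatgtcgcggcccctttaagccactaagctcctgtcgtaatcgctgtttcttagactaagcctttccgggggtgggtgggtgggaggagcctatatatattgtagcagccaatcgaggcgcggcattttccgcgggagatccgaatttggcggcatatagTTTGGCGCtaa
Mcm3: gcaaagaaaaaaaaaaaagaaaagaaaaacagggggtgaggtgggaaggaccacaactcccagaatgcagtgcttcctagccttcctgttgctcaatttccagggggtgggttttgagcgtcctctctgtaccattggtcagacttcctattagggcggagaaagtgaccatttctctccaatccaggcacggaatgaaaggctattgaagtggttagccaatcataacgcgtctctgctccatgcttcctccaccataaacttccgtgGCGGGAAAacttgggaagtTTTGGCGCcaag
Mcm7: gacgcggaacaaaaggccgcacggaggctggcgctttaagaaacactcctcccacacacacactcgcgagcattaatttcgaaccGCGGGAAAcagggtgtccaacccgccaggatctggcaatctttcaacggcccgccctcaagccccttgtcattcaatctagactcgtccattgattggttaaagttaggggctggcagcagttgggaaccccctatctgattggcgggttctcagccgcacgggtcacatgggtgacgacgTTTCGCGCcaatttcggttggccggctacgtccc
Cenpa: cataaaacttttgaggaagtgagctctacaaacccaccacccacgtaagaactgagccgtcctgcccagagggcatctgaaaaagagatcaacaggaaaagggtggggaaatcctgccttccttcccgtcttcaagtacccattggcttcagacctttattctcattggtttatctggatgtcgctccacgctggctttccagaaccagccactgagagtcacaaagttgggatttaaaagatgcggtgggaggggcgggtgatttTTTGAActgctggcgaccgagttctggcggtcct

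The E2F motif was searched as TTTGGCGC, TTTGCCGC, TTTCGCGC or TTTCCCGC, and the CHR as TTTGAA or TTCGAA, on both strands, with overlapping matches counted. The E2F motif stood in the windows of 9 of the 34 genes of the set that had one (26.5%) and in 3.81% of 14452 genes with a window. It stood in 6 of 7 origin licensing genes, in 2 of 3 activators, in 0 of 4 G1 genes and in 0 of 9 spindle genes. The CHR stood in 17 of the 34 (50%) against 17.5% of all, and in 7 of 7 mitotic cyclins and kinases, and CCAAT, which binds NF-Y, in 25 of the 34 (73.5%) against 42%. Genes with the E2F motif therefore included E2f2, which fell, and Mcm3 and Mcm7, whose differences had opposite signs.

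Of the 6 G1 cyclins and kinases, which carry the receptor signal to the pocket proteins, 0 passed, and the median difference was -0.01. Ccnd3 differed by -0.14 (SE 0.12, limma adjusted p = 0.841), with values from -0.29 to 0.45 on the NR4 arrays with anti-IgM alone. Ccnd2, the other D-type cyclin of the set, differed by -0.06 (SE 0.09), and its partners Cdk4 and Cdk6 by 0.04 (SE 0.07) and 0.08 (SE 0.08). Their intervals reached from -0.26 to 0.14 for Ccnd2 and from -0.11 to 0.20 for Cdk4. Ccne2, an E-type cyclin that drives the start of DNA synthesis and lies on chromosome 4, differed by -0.09 (SE 0.22, limma adjusted p = 0.974), and Ccne1 by 0.10 (SE 0.12).

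The 8 origin licensing genes load the Mcm helicase on DNA. None passed, and 6 of the 8 differences were above 0. Mcm3, a helicase subunit, read -0.32, -0.17 and 0.00 in unstimulated NOD cells, 0.08 and 0.00 in NOD cells with anti-IgM, -0.30, -0.49 and 0.00 in unstimulated NR4 cells, and 0.47, 0.03 and 0.18 in NR4 cells with anti-IgM. The stimulated arrays lay above the unstimulated ones in each strain, in NOD by a margin under 0.01, and the averaged difference was 0.35 (SE 0.11, limma adjusted p = 0.224). Mcm7, a subunit of the same ring, had the opposite sign. It read 0.24, 0.08 and 0.20 in unstimulated and 0.00 and -0.24 in stimulated NOD cells, and 0.04, -0.03 and 0.03 in unstimulated and -0.18, -0.06 and -0.23 in stimulated NR4 cells, an averaged difference of -0.23 (SE 0.07, limma adjusted p = 0.193). With E2f2, these were the 3 of 41 genes whose stimulated and unstimulated arrays did not overlap in either strain, in the same direction, which held for 5.64% of all genes. The other subunits Mcm2, Mcm4, Mcm5 and Mcm6 differed by between -0.01 and 0.19, and the loading factors Cdc6 by 0.05 (SE 0.21) and Cdt1 by 0.11 (SE 0.17).

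Among the 4 genes of DNA synthesis and nucleotide supply 0 passed. Pcna, the sliding clamp of the replication fork, read 0.00, -0.05 and 0.01 in unstimulated and 0.18 and 0.17 in stimulated NOD cells, and -0.20, -0.13 and -0.11 in unstimulated and -0.13, 0.08 and 0.17 in stimulated NR4 cells. Stimulated NOD arrays were thus higher and NR4 arrays overlapped, and the averaged difference of 0.18 (SE 0.07) had limma adjusted p = 0.321. Rrm2, the regulated subunit of ribonucleotide reductase, differed by 0.36 (SE 0.21, limma adjusted p = 0.65) and spread widely within groups, from -0.77 to 0.31 in unstimulated NOD cells. Rrm1 and Tyms, which makes thymidylate, differed by -0.01 (SE 0.11) and -0.03 (SE 0.06).

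Of the 9 measured mitotic cyclins and kinases 0 passed, with a median difference of 0.04. The smallest p-values were those of the checkpoint kinase gene Bub1b (-0.17, SE 0.08, limma adjusted p = 0.521) and of Ccna2, the cyclin of S phase and G2 (0.23, SE 0.14, limma adjusted p = 0.639). Cdk1, the kinase that drives mitosis, differed by 0.13 (SE 0.19), and its unstimulated arrays spanned -0.61 to 0.58, around all of the stimulated ones.

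The 11 spindle, kinetochore and chromosome genes also had 0 calls. Birc5, which codes for survivin of the chromosomal passenger complex, read -0.95, 0.26 and -0.29 in unstimulated and -0.19 and 0.00 in stimulated NOD cells, and -0.98, 0.00 and -0.40 in unstimulated and 0.29, 0.38 and 0.42 in stimulated NR4 cells. Its NR4 arrays separated and its NOD arrays overlapped, and the averaged difference was 0.53 (SE 0.22, limma adjusted p = 0.379) with an interval from 0.04 to 1.02. Kif11, a motor that separates the spindle poles, differed by 0.26 (SE 0.12, limma adjusted p = 0.458). Mki67, the usual marker of proliferating cells, differed by 0.02 (SE 0.23), with an interval from -0.49 to 0.52. Kif20a, a motor of cytokinesis, had the widest range of the 41 genes, 1.75 over the 11 arrays, and differed by -0.30 (SE 0.30, limma adjusted p = 0.874). Cdc20, an activator of the anaphase-promoting complex that lies on chromosome 4, differed by 0.10 (SE 0.17, limma adjusted p = 0.952).

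Around these genes, lists of pathway genes gave calls in both directions. Among 11 CDK inhibitors and pocket proteins 0 rose and 1 fell, among 24 further E2F, DP, cyclin and CDK genes 0 rose and 1 fell, among 46 further replication genes 1 rose and 0 fell, among 56 further mitosis genes 1 rose and 0 fell, and among 8 quiescence genes 0 rose and 2 fell. Over all genes 1.56% were called in this comparison, 130 higher and 153 lower. The list medians were -0.06, -0.02, -0.08, 0.01 and -0.26, beside 0.00 over all genes, and 0 of the 8 quiescence genes were above 0. With the replicate number as a block, which called 3.07% of all genes, 4 more genes passed: the CDK inhibitor gene Cdkn1a rose by 0.55, and Tfdp2, a partner of E2F factors, Cdc7, the kinase that fires origins, and Rfc1, a subunit of the clamp loader, fell by 0.33, 0.35 and 0.47.

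Ccng2, an atypical cyclin found in arrested cells, read 0.20, 0.19 and 0.07 in unstimulated and -0.08 and -0.24 in stimulated NOD cells, and 0.29, 0.30 and 0.19 in unstimulated and -0.52, -0.44 and -0.40 in stimulated NR4 cells. The arrays did not overlap, and Ccng2 fell by 0.51 (SE 0.07, limma adjusted p = 0.00537). It also passed in NR4 alone (-0.71, limma adjusted p = 0.0101), and in NOD it differed by -0.31. With its lowest-numbered probe set alone Ccng2 differed by -0.23 and was not called.

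The quiescence genes that fell were Sesn1 and Btg2. Sesn1, a stress-induced inhibitor of growth signalling, read 0.22, 0.16 and 0.27 in unstimulated and -0.50 and -0.27 in stimulated NOD cells, and from 0.05 to 0.09 in unstimulated and -0.60 to -0.39 in stimulated NR4 cells. It fell by 0.59 (SE 0.07, limma adjusted p = 0.00366). Btg2, an antiproliferative gene of lymphocytes, read 0.14, 0.13 and 0.31 in unstimulated and -0.22 and -0.43 in stimulated NOD cells, and from 0.10 to 0.15 in unstimulated and -0.96 to -0.48 in stimulated NR4 cells, and fell by 0.65 (SE 0.10, limma adjusted p = 0.0124). In both genes every stimulated array lay below every unstimulated one. Rbl2, whose product p130 is the pocket protein of quiescent cells, read 0.27, 0.17 and 0.15 in unstimulated and -0.04 and -0.36 in stimulated NOD cells, and 0.26, 0.11 and -0.04 in unstimulated and -0.36, -0.49 and -0.30 in stimulated NR4 cells. Its averaged fall was 0.45 (SE 0.09, limma adjusted p = 0.0324).

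In the other direction, Cenpa, the histone variant of centromeres, read 0.04, 0.00 and -0.14 in unstimulated and 0.37 and 0.38 in stimulated NOD cells. In NR4 it read -0.34, -0.34 and -0.48 in unstimulated and 0.06, 0.36 and 0.00 in stimulated cells. It rose by 0.47 (SE 0.08, limma adjusted p = 0.0226). Ung, a uracil glycosylase of replication and antibody gene repair, ran from -0.27 to 0.00 on unstimulated and from 0.09 to 0.32 on stimulated arrays, and rose by 0.35 (SE 0.07, limma adjusted p = 0.0365). Leaving out single arrays kept the calls of Ccng2 and Sesn1 in 11 of 11 fits and that of Btg2 in 10, and those of Cenpa, Rbl2 and Ung in 4, 2 and 2, with limma adjusted p up to 0.105, 0.164 and 0.164. The call of Cenpa was also lost with the mean of its probe sets, without those marked as less specific and with the lowest-numbered one, that of Rbl2 with the lowest-numbered one, and that of Ung after quantile normalization.

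**Figure D4:**
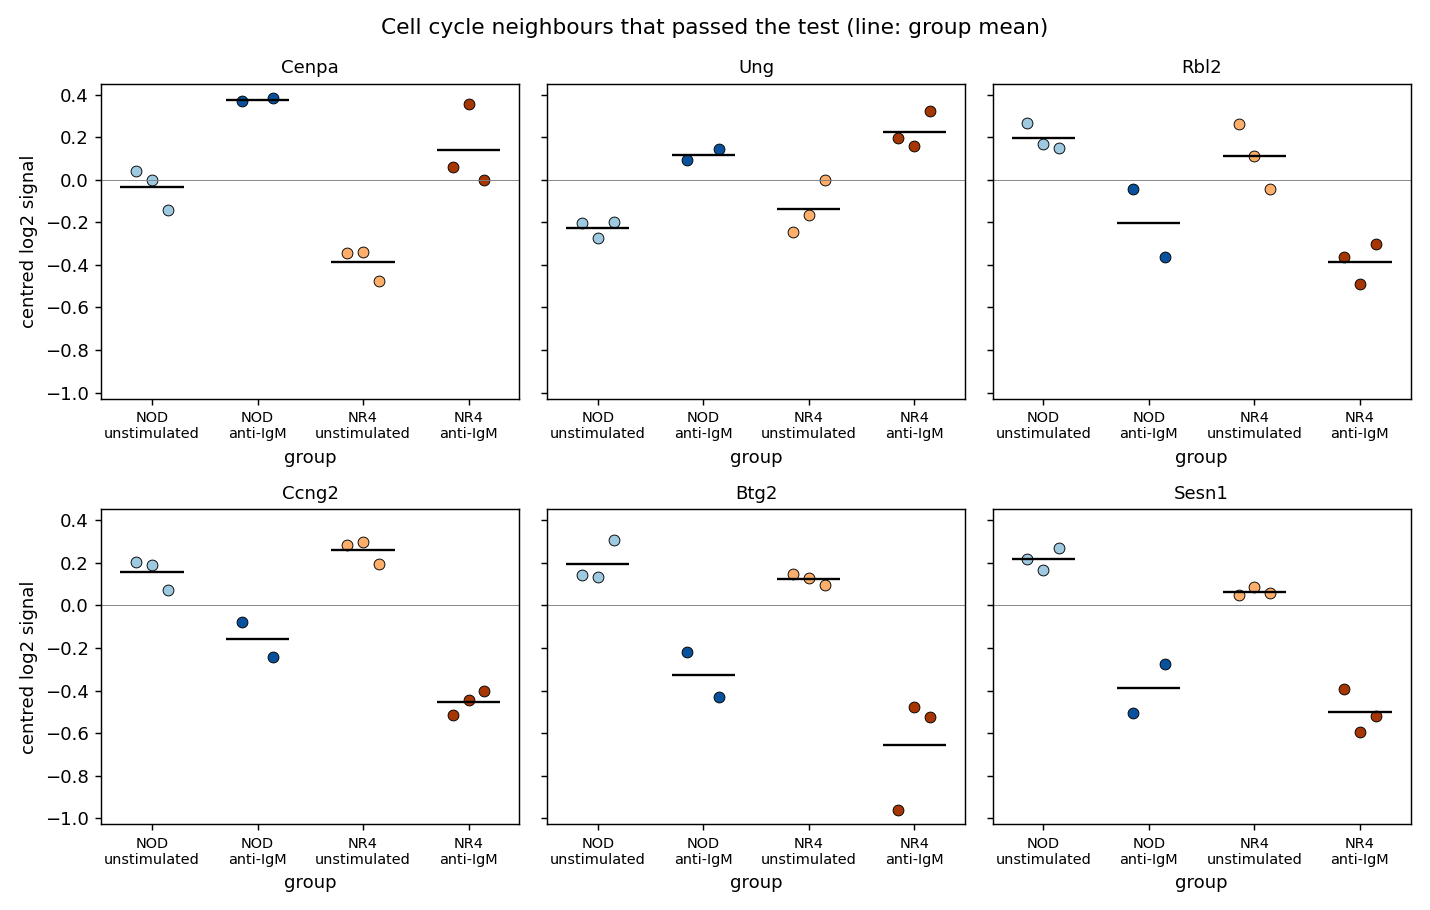
Centred log2 signal on each array (points) and group mean (line) of the 6 pathway genes outside the set that passed the averaged test. Cenpa and Ung are higher and Rbl2, Ccng2, Btg2 and Sesn1 lower with anti-IgM in both strains, with no overlap of stimulated and unstimulated arrays within a strain.

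Within a strain, no gene of the set was called in either direction. In NR4, 0.412% of all genes were called, and 3 of the 41 (7.32%) had an unadjusted p under 0.05, against 9.63% of all genes. In NOD, with 2 stimulated arrays, 0.115% of all genes were called, and again 3 of the 41 (7.32%) had an unadjusted p under 0.05, against 5.15% of all genes. The medians of the 41 differences were 0.08 in NR4 and 0.00 in NOD, beside 0.02 and -0.02 over all genes. The difference between the strains in the response was tested as an interaction, in which limma called 0 of 41 genes and 0.0% of all genes, with 0 of 41 and 255 of all genes at an unadjusted p under 0.05. The widest interactions in the set were those of Kif20a (0.60) and Birc5 (-0.60), both of which have wide spreads within groups.

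The second question was whether the strains differed. Averaged over both cultures limma called 0 of the 41 genes, against 0.121% of all genes, and 2 of the 41 (4.88%) had an unadjusted p under 0.05, against 4.39% of all genes. These were the spindle genes Kif23, higher in NOD by 0.31 (SE 0.11, limma adjusted p = 0.938), and Cenpe, by 0.27 (SE 0.12), and both were picked out after their values were seen. The averaged strain differences ran from -0.16 to 0.42, the highest being that of Ccnb2, and the 95% interval lay within 1 either way for 41 of 41 genes. In unstimulated cells 0 of 41 were called, against 0.0605% of all genes, with 0 of 41 and 1.54% of all genes at an unadjusted p under 0.05. In stimulated cells 0 of 41 were called, against 0.0495%, with 1 of 41 (2.44%) and 4.34% of all genes at an unadjusted p under 0.05. Unstimulated NOD cells had 29 of 41 genes above NR4 (70.7%, against 57.1% of all genes), with a median of 0.10 beside 0.02 over all genes. These included 8 of 8 licensing genes and 5 of 11 spindle genes, none of which passed. The genes of a list share the same arrays and are not replicates. The mean of the licensing genes was -0.017, -0.0039 and 0.081 on unstimulated NOD arrays and -0.24, -0.26 and 0.05 on unstimulated NR4 arrays, which overlap. With anti-IgM it was 0.07 and 0.06 in NOD and from -0.12 to 0.02 in NR4. These lists were picked out after their values were seen. Stimulated NOD cells had 23 of 41 above NR4 (56.1%, against 47.8% of all genes), with a median of 0.02, including 7 of 8 licensing genes and 5 of 11 spindle genes. No gene of the set had arrays that separated by strain in both cultures, as 1.54% of all genes did.

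The 3 genes on chromosome 4, where the strains differ in origin along part of the chromosome, were E2f2, Cdc20 and Ccne2. Their NOD minus NR4 differences were 0.21 (SE 0.15), -0.11 and 0.10, and none passed. The probe sets of a gene were unlike: E2f2 differed by 0.39 on 1436434_at and 0.02 on 1455790_at, and Cdc20 by -0.12, 0.23 and -0.06. None of these passed. On 1436434_at unstimulated cells read 0.43, 0.39 and 0.44 in NOD and 0.08, 0.00 and -0.10 in NR4, while the stimulated arrays of the strains overlapped. The positions of the 3 genes relative to the NOR segment were not analysed here.

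After the values were seen, replicate numbers were compared as well, with the group means taken out. By limma's F test 5 of 41 genes differed by number (12.2%), against 6.84% of all genes. At an unadjusted p under 0.05 there were 15 of the 41 (36.6%), against 28.8% of all genes. Nusap1 and Tpx2, which organise spindle microtubules, and Cdc6 were on average lower on arrays numbered 1 than on the others, and the limma adjusted p were 0.0134, 0.0305 and 0.0437. Ccnb2 and Kif20a were on average higher there, with limma adjusted p = 0.0472 and 0.0474. Nusap1 read -0.60, -0.38, -0.32 and -0.38 on the 4 arrays numbered 1, and between 0.00 and 0.23 on the other 7. Kif20a read 0.47, 0.62, 1.28 and -0.03 on arrays numbered 1, and from -0.48 to 0.40 on the others, so that its groups overlapped by number.

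The count of 5 was 0 without unstimulated NOD number 1, 9 without NR4 with anti-IgM number 2, 2 without NR4 with anti-IgM number 3 and 1 without any other array but NR4 with anti-IgM number 1. Markers of other cells also differed by number, with 3 of 10 T cell markers and 3 of 9 NK and cytotoxic markers called. The mean of the NK markers ran from -0.04 to 0.26 in unstimulated and 0.13 to 0.33 in stimulated NOD cells, and from -0.76 to 0.17 and -0.31 to 0.22 in NR4. In each group its highest value, 0.26, 0.33, 0.17 and 0.22 in that order, was on the array numbered 1. The mean of the T cell markers was also highest there in each group, and that of the myeloid markers in NOD but not in NR4. The part of these other cells in the differences by number was not tested.

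**Figure D5:**
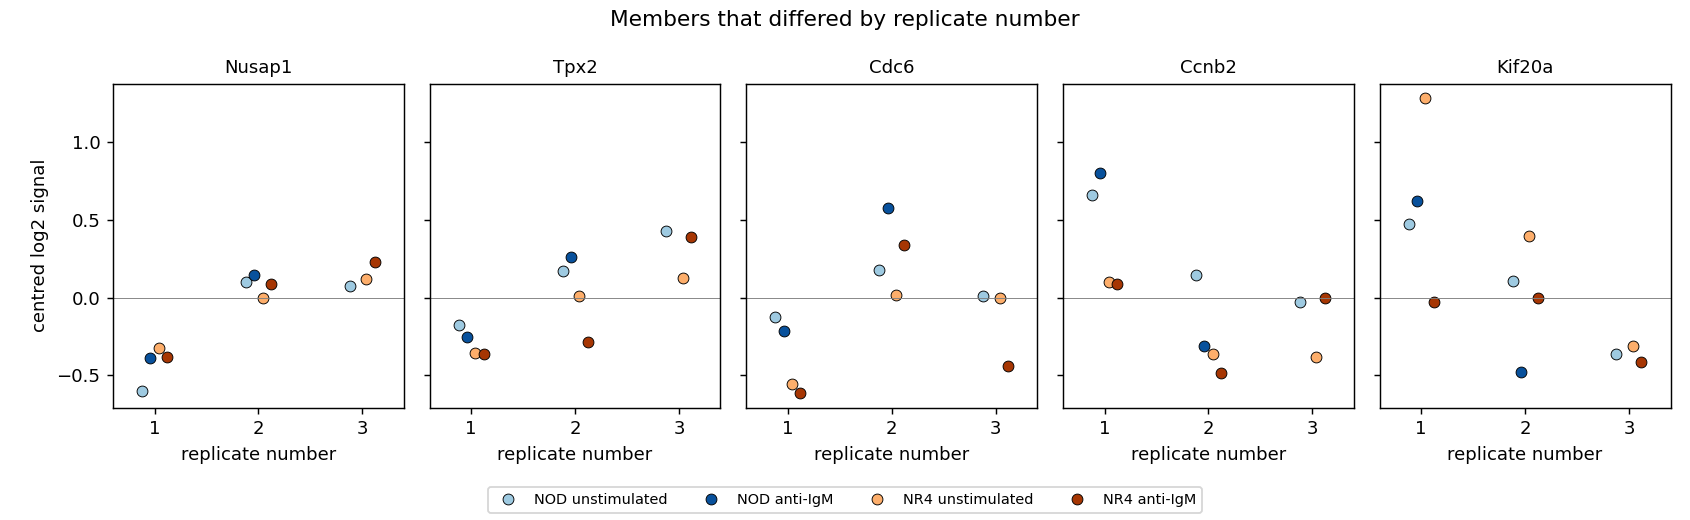
Centred log2 signal of the 5 genes that differed by replicate number, plotted against that number, with each point an array coloured by group. Nusap1, Tpx2 and Cdc6 are lower, and Ccnb2 and Kif20a mostly higher, on arrays numbered 1, and the points of Nusap1 at number 1 lie between -0.60 and -0.32.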

How the data were processed

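RNA was amplified in 1 cycle, labelled with biotin and hybridised to Affymetrix arrays, per the labels. The submitters' processing notes name RMA as the method behind the deposited values. For each of 45101 probe sets the 11 arrays have a median of 0, which shows that the authors' log2 values were centred. The base of 2 follows from RMA and is not written in the table. No detection calls were used, and precision is limited by how few arrays there are. The titles call the arrays of a group biological replicates, and whether each came from a separate lot of pooled animals is not stated.

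Of the probe sets, 34945 name 1 gene symbol, 932 several, 9160 none, and 64 are controls. The first were reduced to 18193 genes by their median. Group means were fitted to all 11 arrays with limma 3.58.1 in R 4.3.3 (lmFit, eBayes), 7 residual degrees of freedom, and p-values adjusted by Benjamini-Hochberg over all genes. The fit was tested on simulated data.

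The genes, lists and tests were chosen with earlier results of these data known. Genes given with values were those called, the 2 smallest p in each role, those on chromosome 4, the 3 widest ranges, and called genes of the pathway lists. Others given with values were chosen after their values were seen.

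The lots link stimulated and unstimulated cells of a strain, but the labels do not say that replicate numbers mark lots. Deviations of same-numbered arrays from their group means correlated at 0.33, 0.22 and 0.47 in NR4, and at 0.63 and 0.12 in NOD, and between unstimulated NOD and NR4 cells at 0.59, 0.21 and 0.51. All of these exceed the limit of 0.1 for pairing, which in NR4 rests on 3 pairs. Some other same-numbered pairs across strains did not. NR4 with anti-IgM number 2 correlated at -0.12 with NOD with anti-IgM number 2, and at 0.06 with unstimulated NOD number 2. NOD with anti-IgM number 2 correlated more with unstimulated NOD number 3, at 0.58, than with number 2. The deviations of the 2 stimulated NOD arrays are mirror images, so the NOD values are not separate evidence of pairing. Unless a block is named, the printed results are from the fit without it, whose standard errors and intervals leave any pairing out. The fit with the replicate block is given beside a printed result where it changes that call, and for E2f2 and Birc5.

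Alternatives were the replicate block, the lot as a random effect, the mean, the lowest-numbered or only the specific probe sets, quantile normalization and leaving out each array. Promoters are RefSeq windows (GRCm38.p6).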

Additional observations from a re-analysis of the deposited data

How the results depend on the processing

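The count of 1 member called in the averaged response was the same with the replicate block, the random lot, the mean of probe sets, the specific probe sets and quantile normalization, and was 0 with the lowest-numbered probe set of each gene. Leaving out single arrays gave from 0 to 1. In NR4 the count of 0 became 1 with the replicate block and 1 with the random lot, E2f2 each time, and was from 0 to 1 when single arrays were left out (1 without NR4 anti-IgM array 1). The counts of 0 in NOD, between strains averaged over cultures or in unstimulated cells, and for the interaction did not move under any of these. The strain comparison in stimulated cells was not rerun. For E2f2 the averaged difference ran from -0.994 (lowest-numbered probe set, limma adjusted p = 0.136) to -0.703. The number of members that differed by replicate number was 3 after quantile normalization and from 0 to 9 when single arrays were left out. Signs turned, without a call, for Cdc20, which ran from -0.0532 to 0.246 and was -0.0407 without NR4 anti-IgM array 2, and for Ccne2, from -0.265 to 0.0987. With the lowest-numbered probe set the calls of Cenpa, Rbl2, Ccng2 and Ung were lost (limma adjusted p = 0.696, 0.135, 0.301 and 0.0549), and that of Ung after quantile normalization (limma adjusted p = 0.0577). The cause was not tested. A filter on dim probe sets was not run, because centred values hold no level.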

Other observations

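Of the 102 probe sets of the 41 genes, 11 had an unadjusted p under 0.05 for the averaged response (10.8%, against 11.6% of all named probe sets), 7 higher and 4 lower, and no gene had probe sets past that limit in both directions. One of the 11, chosen after its values were seen, was 1438805_at of the D-type cyclin gene Ccnd3, which differed by -0.67 (SE 0.17, limma adjusted p = 0.112 over probe sets). The other Ccnd3 probe sets, 1415907_at and 1444323_at, differed by -0.13 and 0.09, and the gene's median by -0.14.

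Of 7 measured germinal centre markers 1 rose and 1 fell with anti-IgM, with a median difference of -0.08, and of 7 plasma cell markers 1 rose and 0 fell, with a median of 0.01. Irf4, a regulator of plasma cell fate, rose by 0.79 (SE 0.07, limma adjusted p = 0.000636) and Rgs13, a germinal centre gene, by 1.20 (SE 0.14, limma adjusted p = 0.00366). Elk3 of the germinal centre list fell by 0.50 (SE 0.08, limma adjusted p = 0.0174).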
